A study of Laguncularia racemosa with 22 samples.

Results

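The 100 genes described here are leaf transcripts of *Laguncularia racemosa*, the white mangrove, that stood highest at 36 h in each of 2 series of seedlings, titled P and Q. They were ranked among the 54696 assembled genes of a deposited count table. Counts were scaled to a common library total (CPM), and the level of a gene in a group was the mean of log2(CPM + 1) over that group's libraries. Of all genes, 14305 had a mean of at least 1 CPM over the 22 libraries and 36 h levels in P and Q within 1 log2 unit of each other. The score of a gene was its 36 h level minus its highest level at 0, 3 or 12 h, taken in whichever letter gave the smaller value. The members were chosen by these measured levels, as the 100 highest scores, so the height of their 36 h peak is a description and is not tested here.

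Wild-type seedlings 8 weeks old were sampled as leaves in 8 groups, one for each letter at 0, 3, 12 and 36 h. Treatment labels of P give freezing temperature for 0, 3 or 12 h, and for its last group 12 h of cold with 24 h of recovery. Treatment labels of Q read control at each of the same times. The protocol text that accompanies both letters holds seedlings at 0 °C and then puts them back at 30 °C in the day and 28 °C in the night, so what Q received is not settled by the labels. Seeds had been collected at a reserve in Sanya and in Putian, and no label ties a letter to a place. RNA was taken plant by plant, but it is not stated that each library of a group is a different plant, so a p-value here reflects library-to-library spread, which may be technical. There were 3 libraries per group, and 2 each for P at 3 h and P at 36 h. Total counts were 13743563 to 18462363 per library.

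Leaves that are chilled and rewarmed change their transcripts during the cold and again after it, when photosynthesis, protein repair and growth resume. Many leaf transcripts also follow the time of day through light and the circadian clock. The 12 h and 36 h labels lie 24 h apart, and no label gives the clock time of sampling. The IDs look like those of Trinity, an assembler of transcripts that needs no genome, and the files pair none of them with a name. No function or sequence is therefore given to a member, the leaf label could not be checked against marker genes, and 4 members are named by ID. In whole leaves, a change in the number of cells of one type and a change in RNA per cell cannot be told apart.

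The scores of the 100 members ran from 1.02 to 3.21, with a median of 1.30, which is 2.47-fold in CPM + 1. The last 5 members scored 1.02 to 1.04 and the 5 genes just outside scored 0.98 to 1.01, so no gap separated them. A score of 2 or more was reached by 13 members and a score of 3 or more by 2. Taken within a letter, the median rise above the highest earlier level was 1.70 in P and 1.46 in Q, and the rise in P was the larger of the pair for 63 members. The same rule applied to the other times gave 25 genes with a score of 1 or more at 0 h, 44 at 3 h and 46 at 12 h, against 103 at 36 h. At the lower threshold of a score above 0 the order was another, with 3044 genes at 0 h, 1232 at 3 h, 1881 at 12 h and 2462 at 36 h.

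**Figure D1:**
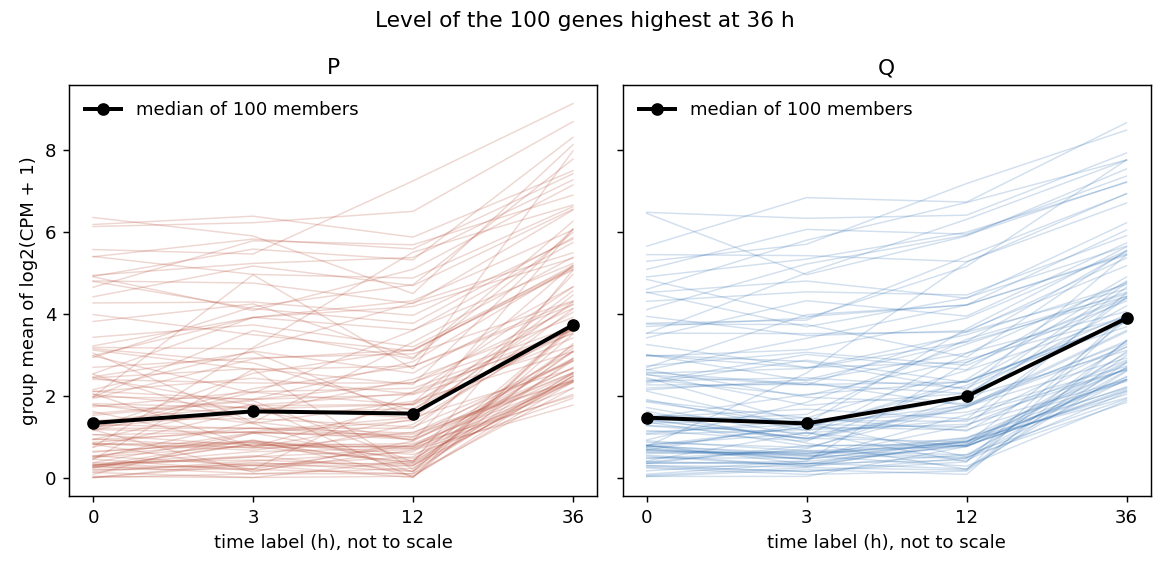
Level of each of the 100 members (thin lines) in P and Q at the 4 times, as the group mean of log2(CPM + 1), with the median of the members in black. The lines rise at 36 h because the members were chosen for it, and before that the median lies between 1.33 and 1.62 in P and between 1.32 and 1.98 in Q.

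Most members were weakly expressed transcripts before 36 h. The median member stood at 1.65 CPM in P and 2.02 CPM in Q at 0 h, at percentiles 33.5 and 34.1 among the 21694 genes that passed the filter on low counts. At 36 h it stood at 12.4 CPM in P and 14.0 CPM in Q, at percentiles 52.4 and 56.6. Mean levels over all libraries ranged from 1.07 to 164 CPM, with 26 members under 2 CPM, 42 from 2 to 10, 21 from 10 to 50 and 11 above 50. All 100 members passed the low-count filter. That filter and the minimum mean of 1 CPM also count the 36 h libraries, for which the members were chosen. A pass therefore does not show that a member was well measured before 36 h. Over the 17 libraries of 0, 3 and 12 h they had a median of 633 counts and a minimum of 20, and over the 5 libraries of 36 h a median of 1101 and a minimum of 234.

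Together the members took up a small share of the counted RNA, largest at 36 h by the choice of members. Their summed level in P was 648, 823 and 1057 CPM at 0 h, 853 and 951 CPM at 3 h, 965, 1007 and 1018 CPM at 12 h, and 4627 and 4995 CPM at 36 h. In Q it was 659, 720 and 1022 CPM at 0 h, 829, 934 and 934 CPM at 3 h, 1290, 1340 and 1380 CPM at 12 h, and 3993, 4082 and 4587 CPM at 36 h. The P and Q libraries overlapped at 0 and 3 h, and at 12 h all 3 of Q lay above all 3 of P. At 36 h the members held 0.399% to 0.4995% of the counts of a library, and the 5 most abundant of them gave 33.1% to 39.6% of that. The 36 h libraries of P lay above those of Q on this scale, but overlapped them once libraries were scaled by TMM (a trimmed mean of ratios between libraries), at 4295 and 4767 against 3762, 3966 and 4504.

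**Figure D2:**
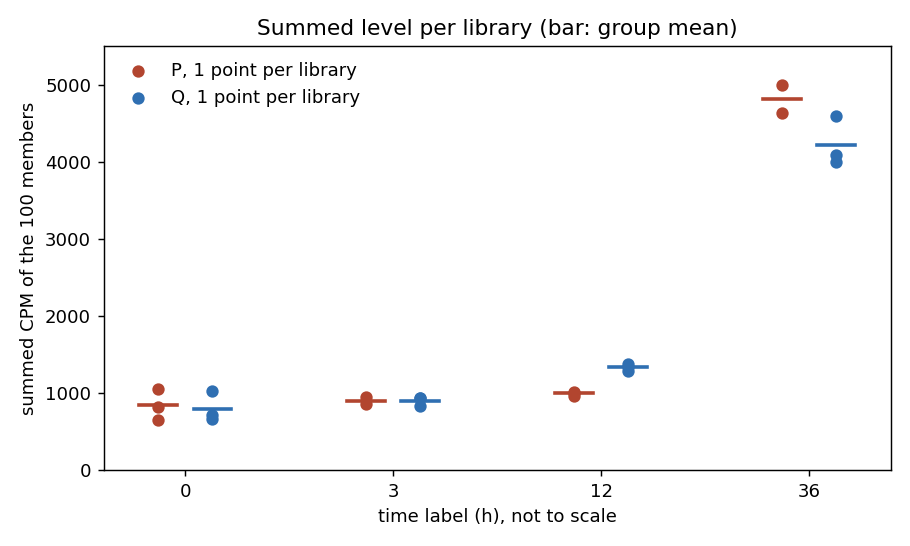
Summed CPM of the 100 members in each library by time label, with 1 point per library and a bar at the group mean. The 5 libraries of 36 h lie between 3993 and 4995, and at 12 h the 3 Q libraries, at 1290 to 1380, lie above the 3 P libraries, at 965 to 1018.

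The 2 members of highest score had at most 2.69 CPM in any library before 36 h. TRINITY_DN349_c0_g1 measured 0.492, 0.704 and 0.827 CPM in P at 0 h, 1.67 and 2.69 CPM at 3 h, 0.437, 0.614 and 1.79 CPM at 12 h, and 27.7 and 32.8 CPM at 36 h. In Q it measured 0.582 to 1.63 CPM at 0 h, 1.21 to 1.64 CPM at 3 h, 0.842 to 2.13 CPM at 12 h, and 20.4, 21.6 and 23.5 CPM at 36 h. Its 36 h libraries lay far above every earlier one, those of P above those of Q, and its difference between 12 and 0 h passed the test in neither letter (log2 0.63 in P and 0.33 in Q, adjusted p 0.342 and 0.594 in edgeR's quasi-likelihood test). From 0 to 3 h in P it rose by 1.74 on the log2 scale (standard error 0.49, adjusted p 0.0415 in edgeR). That call was lost when any 1 library of P at 0, 3 or 36 h, or Q replicate 2 or 3 of 36 h, was left out (log2 1.37 to 2.04, adjusted p 0.0511 to 0.314), with only the libraries compared (1.74, adjusted p 0.136) and with a replicate block (1.70, adjusted p 0.0528). TRINITY_DN7204_c0_g1 had no count in the 3 libraries of P at 0 h, 9 counts over 2 libraries at 3 h and 5 over 3 libraries at 12 h, and then 278 and 109 counts at 36 h. Against a floor of 3 counts over the 0 h group, that is at least 204-fold higher at 36 h. In Q it had 2, 9 and 7 counts over 3 libraries at 0, 3 and 12 h and 447, 126 and 193 counts at 36 h, or 16.7 ± 11.7 CPM (SD, n = 3). The 36 h libraries of this gene spread widely within each letter and overlapped between letters.

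**Figure D3:**
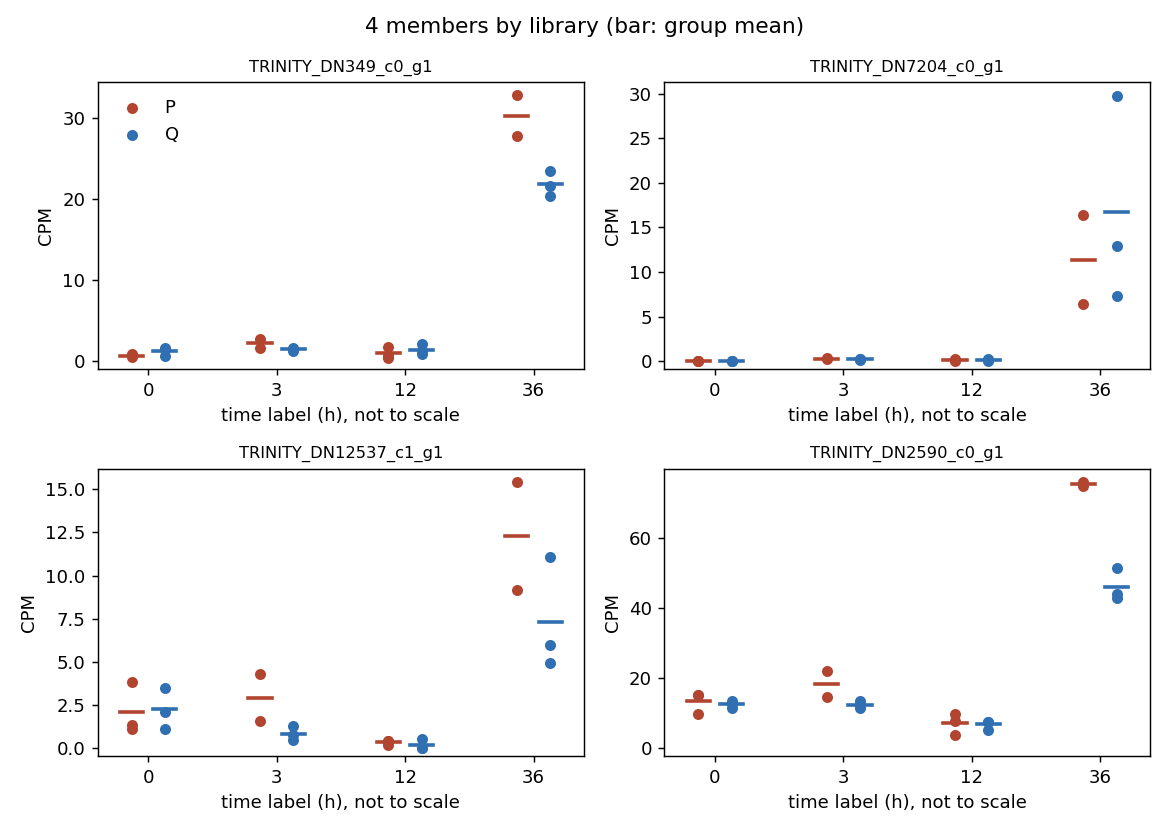
CPM of the 4 named members in each library by letter and time label, with 1 point per library and a bar at the group mean; each panel has its own axis from 0. The upper pair has the highest scores, and the lower pair was called lower at 12 h than at 0 h in both letters before its 36 h peak.

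The agreement of libraries behind the 36 h level varied from member to member. In 98 members both P libraries of 36 h lay above all 8 earlier P libraries, in 97 all 3 of Q lay above all 9 earlier Q libraries, and in 96 both held. Over all genes tested these shares were 18.5%, 6.59% and 3.66%, and since the rule ranked by this difference nothing is read from the contrast. In 89 members the lowest of the 5 libraries of 36 h exceeded every one of the 17 earlier libraries of either letter, which held for 2.64% of all genes tested. Within P the higher 36 h library was a median of 1.37 times the lower, and over 4 times it in 5 members. Within Q the highest was a median of 1.55 times the lowest, and over 4 times it in 7 members. The member of score rank 6 was the steadier kind, at 217 and 219 CPM in P and 203, 221 and 222 CPM in Q at 36 h, after at most 35.3 CPM in any earlier library. The biological coefficient of variation within groups had a median of 0.41 over the members and 0.244 over all tested genes, while the median abundance of the members was the lower, at 2.42 against 3.26 log2 CPM.

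In edgeR's test, 93 members were called higher at 36 h than at 0 h in P and 93 in Q, where 19.1% and 14.1% of all genes tested were called higher. Against 12 h, 87 members were called higher in P and 79 in Q, with 17.5% and 12.5% over all genes. With libraries scaled by their totals alone, the share of higher calls among all genes called against 12 h went from 52.5% to 70% in P and from 52.4% to 63.2% in Q. These calls repeat the choice of the members and support nothing, and they are given to show how many members the spread between libraries leaves short of a call. A total of 73 members passed in all of these 4 comparisons and 2 passed in none. The fitted median log2 change from 12 to 36 h was 2.29 in P and 1.86 in Q, beside 0.06 and 0.04 over all genes.

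What the members did before 36 h was not what they were ranked by, although the rule did hold their highest earlier level well under the 36 h level. Here and below, counts of members or genes that rose or fell between 2 times are counts of those called higher or lower. From 0 to 12 h in P, 18 members rose and 8 fell, where 15.5% of all genes tested rose and 16.6% fell. In Q, 23 rose and 2 fell, beside 17.9% and 19.9% of all genes. The counts were not tested against these shares. With or without a call, the fitted change was positive for 59 members and negative for 40 in P, and for 75 and 25 in Q. The median log2 change of the members was 0.31 in P and 0.61 in Q, beside -0.04 and -0.02 over all genes. In P, 10 rose and 7 fell with no low-count filter, and 13 rose and 4 fell when only the libraries compared were fitted. The shares of all genes called in those fits are not set beside these counts, so whether the drop is particular to the members is not known. With libraries scaled by their totals alone, 15 rose and 9 fell in P and 22 rose and 2 fell in Q, while the share of rises among all genes called went from 48.4% to 36.6% in P and was 47.3% and 38.2% in Q.

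A rise from 0 to 12 h was called in both letters for 12 members, beside 11.2% of all genes tested. These were 66.7% of the 18 in P and 52.2% of the 23 in Q, under the shares of 72.4% and 62.9% over all genes. Opposite calls were made for 0 members and for 0.0691% of all genes. In 8 of the 12 members the mean CPM rose in the order 0, 3 and 12 h in P, in 11 it did so in Q, and in 7 in both. Their median level was 3.83, 8.16, 17.7 and 42.3 CPM at 0, 3, 12 and 36 h in P and 4.50, 6.47, 14.4 and 44.4 CPM in Q. The steepest of them, at score rank 74, was at 0.812 ± 0.916 CPM at 0 h, 8.46 ± 3.98 CPM (SD, n = 2) at 3 h, 44.8 ± 7.69 CPM at 12 h and 102 ± 33.0 CPM (SD, n = 2) at 36 h in P, and at 0.736 ± 0.469, 4.93 ± 1.02, 39.3 ± 16.4 and 128 ± 51.9 CPM in Q (SD, n = 3 where not given). Its log2 change from 0 to 12 h was 5.89 (standard error 0.62) in P and 5.84 (standard error 0.63) in Q, and edgeR gave adjusted p-values of 2.05e-06 and 1.77e-06. The most abundant of all members, at score rank 50, stood at 46.7 ± 5.82 and 38.2 ± 7.01 CPM at 0 h in P and Q, 151 ± 17.4 and 148 ± 40.6 CPM at 12 h (SD, n = 3 each), and 462 and 678 CPM in P against 308, 357 and 415 CPM in Q at 36 h. It too rose by 12 h in both letters, by 1.82 (standard error 0.22) and 2.06 (standard error 0.23) on the log2 scale, and edgeR gave adjusted p-values of 4.45e-06 and 7.68e-07. Both of these members were picked out after their values were seen.

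A fall from 0 to 12 h was called in both letters for 2 members, beside 12.2% of all genes tested. They were 25% of the 8 in P and both of those in Q, where the shares over all genes were 73.6% and 61.2%. TRINITY_DN2590_c0_g1 measured 9.59, 15.2 and 15.2 CPM in P at 0 h, 14.5 and 22.01 CPM at 3 h, 3.71, 7.64 and 9.76 CPM at 12 h, and 74.8 and 76.1 CPM at 36 h. In Q it measured 11.3 to 13.4 CPM at 0 h, 11.4 to 13.3 CPM at 3 h, 5.24 to 7.50 CPM at 12 h, and 42.8, 44.0 and 51.5 CPM at 36 h. The 12 h libraries did not overlap those of 0 h in Q, and in P the highest at 12 h passed the lowest at 0 h. It fell by 0.79 (standard error 0.26) in P and 0.77 (standard error 0.26) in Q on the log2 scale, and edgeR gave adjusted p-values of 0.025 and 0.0244. These calls rest on single libraries. In P the fall was 0.69, 0.67 and 0.47 without replicate 1 or 2 at 0 h or replicate 1 at 12 h (adjusted p 0.0856, 0.0895 and 0.111 in edgeR), and it was 0.77 with only the libraries compared (adjusted p 0.143). In Q it was 0.73, 0.72 and 0.61 without replicate 1 or 2 at 0 h or replicate 2 at 12 h (adjusted p 0.0636, 0.0628 and 0.113).

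TRINITY_DN12537_c1_g1 measured 1.12, 1.30 and 3.83 CPM in P at 0 h, 1.53 and 4.30 CPM at 3 h, 0.146, 0.383 and 0.409 CPM at 12 h, and 9.18 and 15.4 CPM at 36 h. In Q it measured 1.102, 2.09 and 3.49 CPM at 0 h, 0.473 to 1.24 CPM at 3 h, and 4.90, 5.96 and 11.1 CPM at 36 h, while at 12 h 2 of its 3 libraries had no count and replicate 3 had 9 counts. All 12 h libraries lay below all 0 h libraries in each letter. Its fall from 0 to 12 h was 2.58 (standard error 0.83) in P and 3.46 (standard error 0.88) in Q on the log2 scale, and edgeR gave adjusted p-values of 0.0227 and 0.00418. In P the fall was 1.78 without replicate 2 at 0 h, and 2.24 and 2.70 without replicate 1 or 3 at 12 h (adjusted p 0.133, 0.0844 and 0.0566 in edgeR), and it was 2.58 with no low-count filter (adjusted p 0.0948). Without replicate 3 of Q at 12 h the gene had no count left in that group and was at least 23.3-fold lower than at 0 h against a floor of 3 counts.

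A further 6 members were called lower at 12 h than at 0 h in P alone, 6 higher in P alone, 11 higher in Q alone and 0 lower in Q alone. Over all genes tested these shares were 4.38%, 4.29%, 6.62% and 7.72%. A call in one letter alone does not show that the letters differed. When the 0 to 12 h changes of P and Q were tested against each other, edgeR called 0 members, with 0.0461% of all genes called. An unadjusted p under 0.05 was reached there by 16 members and 14.3% of all genes, and DESeq2 called 6, each with the lower change in P. Leaving out P replicate 1 or Q replicate 2 of the 0 h groups gave 3 calls in edgeR, leaving out P replicate 1 or Q replicate 3 of the 12 h groups gave 1, and with no low-count filter 2. For DESeq2 and these other fits the shares of all genes called, by direction, are not given. The member of score rank 16, picked out after its values were seen, had no count in any of the 3 P libraries at 12 h, after 0.325, 0.946 and 1.70 CPM at 0 h, at least 14.5-fold lower against a floor of 3 counts. In Q it stood at 0.232 to 0.406 CPM at 0 h and at 0, 0.324 and 0.690 CPM at 12 h. At 36 h it reached 11.9 and 13.1 CPM in P and 3.97, 13.4 and 13.4 CPM in Q.

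**Figure D4:**
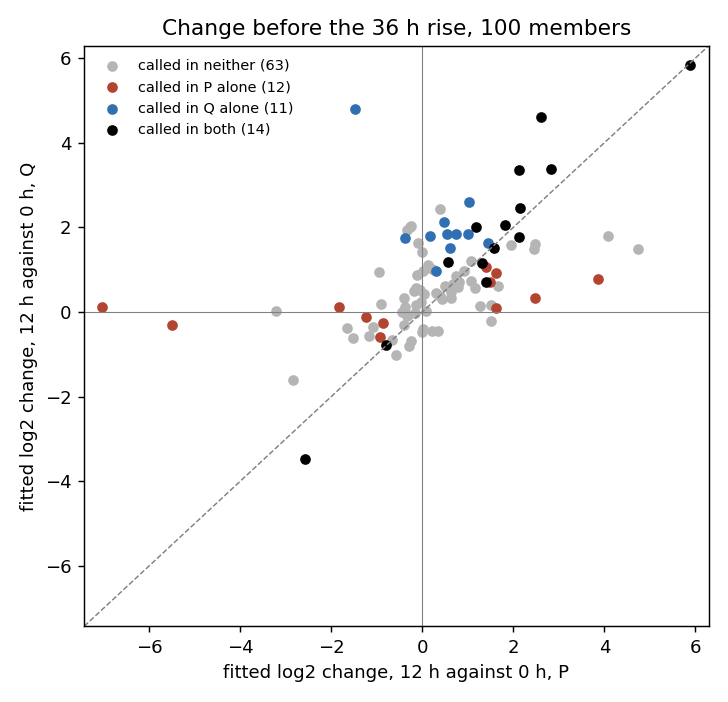
Fitted log2 change from 0 to 12 h of the 100 members in P (horizontal axis) and Q (vertical axis), coloured by whether edgeR called the change; the dashed line marks equal change. Of the members, 14 were called in both letters, 12 in P alone, 11 in Q alone and 63 in neither, and far points with few counts depend on the fit.

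The first 3 h brought few calls. In P, 9 members rose and 0 fell from 0 to 3 h, where 3.77% and 1.49% of all genes did, and in Q 7 rose and 2 fell, beside 5.9% and 3.82%. With libraries scaled by their totals alone these were 9 and 0 in P and 6 and 5 in Q, and rises made up 60.8% and 37.8% of all genes called in place of 71.6% and 60.7%. A rise was called in both letters for 4 members, 44.4% of those in P and 57.1% of those in Q, beside 2.64% of all genes. Over all genes the shared rises were 70.1% of those in P and 44.7% of those in Q. Without replicate 3 of P at 0 h the rises in P numbered 5, without replicate 2 or 3 of P at 3 h they numbered 5 and 3, and they were 4 with only the libraries compared. DESeq2 called 12 rises and 2 falls in P. In edgeR, 26 members had an unadjusted p under 0.05 in either direction, beside 18.8% of all genes. For DESeq2, for only the libraries compared and for the fits with a library left out, the shares of all genes called are not given.

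From 3 to 12 h the letters gave different counts. In P, 8 members rose and 7 fell, where 12.8% and 15.1% of all genes did, and without replicate 3 of P at 3 h these became 3 and 6. In Q, 25 rose and 2 fell, beside 16.3% and 18.5% of all genes. The median log2 change was 0.07 in P and 0.65 in Q, beside 0.00 over all genes in each. That difference between the letters from 3 to 12 h was not tested gene by gene. Among the 3 earlier times, the highest level fell at 12 h for 36 members in P and 58 in Q, at 3 h for 40 and 22, and at 0 h for 24 and 20. It fell at the same time in both letters for 52 members, 30 of them at 12 h. No share over all genes was set beside these counts, and the 3 h level rests on 2 libraries in P and 3 in Q.

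The largest class had no call at all before 36 h. Neither 3 against 0 h, 12 against 0 h nor 12 against 3 h was called in either letter for 51 members, and this was so for 43.5% of all genes tested. That count is near the share over all genes and is not read as a trait of the members. Some of the 51, such as TRINITY_DN7204_c0_g1, had few counts before 36 h and passed the filter through their 36 h libraries. For those the lack of a call says little. These members ranged from 1.07 to 164 CPM in their mean over all libraries and included 3 of the 5 most abundant. Their median was 2.97 CPM, against 9.51 CPM for the other members. By group their median level was 1.18, 1.17 and 0.993 CPM at 0, 3 and 12 h in P and 1.43, 1.13 and 1.60 CPM in Q, and 8.59 and 8.15 CPM at 36 h. The absence of a call does not show a constant level. Over all members, the range between the highest and lowest of the 3 earlier levels was under 1 log2 unit for 69 in P and 74 in Q. That range is on the log2(CPM + 1) scale, which flattens changes at low CPM. In Q the member of score rank 25 rose from a mean of 0.0194 CPM at 0 h (0, 0 and 1 counts) to 0.704 CPM at 12 h. This rise was under 1 unit on that scale, while edgeR called it at log2 4.80 (adjusted p 0.000436). With so few counts at 0 h, the size of that log2 change depends on the fit. The 69 and 74 thus do not show constant levels, and they have no share over all genes beside them.

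P and Q were compared at each time. At 0 h edgeR called 0 members and 0% of all genes, with 10 members and 6.2% of all genes at an unadjusted p under 0.05 and 1 member called by DESeq2; without replicate 1 of P at 0 h edgeR called 1. At 3 h edgeR and DESeq2 called 0 members, beside 0.0138% of all genes in edgeR, with 7 members and 5.7% of all genes at an unadjusted p under 0.05. At 36 h, where the rule held the letters within 1 log2 unit, edgeR called 0 members and 13.7% of all genes, with 8 members and 27.1% of all genes at an unadjusted p under 0.05 and 1 member called by DESeq2. That count was 1 when P replicate 1 of 12 h or Q replicate 3 of 0 h was left out, and 5 with only the libraries compared. The limit itself mattered for membership: of the 100 highest scores without it, 32 lay beyond it, 28 higher in P and 4 higher in Q at 36 h, with a median P minus Q of 2.47.

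At 12 h the members as a list stood lower in P than in Q. The level of 79 members was higher in Q and of 21 higher in P, while 58.4% of all tested genes were higher in Q on this scale. The median P minus Q difference of the members was -0.25 log2 units at 12 h, after -0.09 at 0 h and 0.10 at 3 h, and was 0.10 at 36 h; over all tested genes it was -0.06 at 0 h, -0.01 at 3 h, -0.06 at 12 h and 0.00 at 36 h. In the TMM-scaled fit the median difference at 12 h was -0.40 over the members and 0.00 over all genes, and it was negative for 76 members. In 21 members all 3 libraries of Q at 12 h lay above all 3 of P, and the reverse held in 0, beside 13% and 8.48% of all genes. With TMM scaling these were 17 and 0 members, beside 9.73% and 12.6% of all genes. Leaving out 1 library can only raise such a count. With any 1 of the 6 libraries of 12 h left out, the 21 became 24 to 33, the most without replicate 2 of Q. No share over all genes was set beside those counts. The summed level in Q at 12 h was 1.34 times that in P, 1.26 times with TMM scaling and 1.32 to 1.36 times with any 1 of these 6 libraries left out. These values describe a list and were not tested as one.

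**Figure D5:**
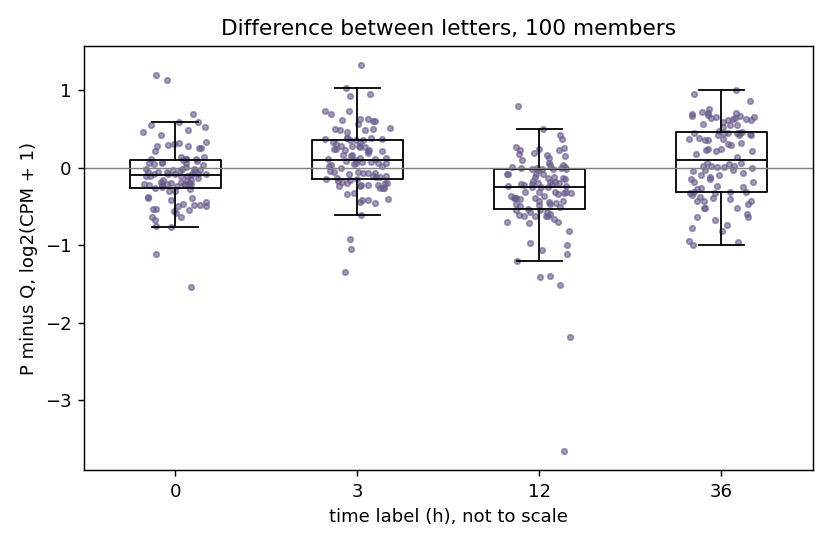
P minus Q difference in level, in log2(CPM + 1), for each of the 100 members at the 4 time labels; boxes span the quartiles with the median inside, and whiskers follow the usual box-plot rule. The median is -0.25 at 12 h and within 0.10 of 0 at the other times, and at 36 h all points lie within 1 because the rule required it.

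Gene by gene, 3 members were called lower in P than in Q at 12 h and 0 higher, where 1.31% and 2.26% of all genes were. With libraries scaled by their totals alone 4 were lower and 0 higher, and P was the higher in 40.0% of all genes called in place of 63.3%. The member of score rank 14 measured 1.23, 1.91 and 2.18 CPM in P and 4.15, 13.7 and 24.2 CPM in Q, a log2 difference of -2.89 (standard error 0.43, adjusted p 0.00793 in edgeR). At 3 h it had measured 1.36 to 1.60 CPM in Q and 2.13 and 2.37 CPM in P. By 36 h it stood at 58.3 and 74.8 CPM in P and at 40.1, 50.0 and 57.3 CPM in Q. The member of rank 27 measured 1.15, 1.23 and 2.11 CPM in P and 4.60, 5.07 and 9.16 CPM in Q at 12 h, a log2 difference of -1.99 (standard error 0.44, adjusted p 0.0227 in edgeR). It had risen from 0 to 12 h in both letters. The member of rank 25 had 0, 1 and 2 counts in the P libraries and 8, 10 and 16 counts in the Q libraries at 12 h, a log2 difference of -3.16 (standard error 0.83, adjusted p 0.0428 in edgeR).

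These 3 calls depended on single libraries. Without replicate 2 or 3 of P at 12 h, edgeR called 1 and 0 members, and without replicate 1 or 2 of Q at 12 h it called 1. The rank 14 difference was -2.96 without replicate 3 of P at 12 h (adjusted p 0.055 in edgeR) and -2.93 with only the libraries compared (adjusted p 0.105). The rank 27 difference was -1.88 and -1.84 without replicate 2 or 3 of P, -1.62 and -2.18 without replicate 1 or 2 of Q at 12 h (adjusted p 0.0873, 0.128, 0.0902 and 0.0581), and -2.03 with only the libraries compared (adjusted p 0.0932). The rank 25 call was lost without either library of P at 3 h, replicate 2 or 3 of P at 12 h, or any library of Q at 12 or 36 h, with adjusted p-values of 0.0502 to 0.166 in edgeR and log2 differences of -2.62 to -3.40. These 3 members were not named by a rule but picked from the calls. Only the libraries compared gave 0 calls and DESeq2 gave 6, all lower in P. Shares of all genes called in those fits are not given, so their direction is not read as a trait of the members.

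Some members may not be separate genes. A Trinity cluster, a set of assembled IDs with shared sequence, held at least 1 other ID for 34 members, beside 30.5% of the tested IDs, and reads of near-identical IDs can be split between them. Only 2 clusters held more than 1 member, with ranks 22 and 29 in one and ranks 57 and 81 in the other. The members of ranks 57 and 81 went from 8.42 and 24.5 CPM at 0 h to 37.5 and 120 CPM at 36 h in P, and from 5.30 and 16.2 CPM to 43.3 and 149 CPM in Q, as group means. When counts were summed over clusters before ranking, the clusters of 82 members were still among the 100 chosen.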

How the data were processed

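Per the file headers and labels, the deposited table gives the authors' raw counts, 1 whole number per assembled gene and library, with no normalization. FastQC, HISAT2 and featureCounts were used, per the submitters' processing notes; versions, settings and the reference aligned to are not given in the sources used here. Each of the 22 columns matched 1 sample title, and 0 other value columns were present. Libraries of a group differed by a chi-square per gene of 17.8 to 57.3, so none was a duplicate.

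Tests used edgeR 4.0.16 (R 4.3.3) on counts scaled by TMM. Of all genes, 21694 passed filterByExpr at a minimum count of 10, and 1 quasi-likelihood fit over the 8 groups gave 15 contrasts. Called means an adjusted p (Benjamini-Hochberg, over all genes of a contrast) under 0.05. Printed CPM values use library totals without TMM. A depth of 13743563 to 18462363 counts means that 1 CPM rests on few counts, and floors cover counting error only. The fit was also run on simulated data, with changes put into a set of genes in P at 12 h alone. That setting differs from these data, where many genes were called in most comparisons of times, so nothing is drawn from it.

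The members, tests and lists were chosen with earlier results of these data known. Members named by ID are the 2 of highest score and the 2 with the most negative mean change from 0 to 12 h among those called lower in both letters. Lists of named genes could not be used, since no ID has a name. Alternatives were RLE scaling, library totals, no filter, a filter of 10 counts in 11 or more libraries, only the libraries compared, DESeq2 1.42.0, a replicate block, each library left out, and other forms of the rule. The alternatives for the 3 h call of TRINITY_DN349_c0_g1, the ratio of summed levels and the count of members with no overlap at 12 h, with their alternatives, were chosen after seeing the data.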

Additional observations from a re-analysis of the deposited data

How the results depend on the processing

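Membership changed with the rule: of the 100 members, 52 were kept with a minimum mean of 5 CPM, 63 with letters held within 0.5, 68 with no limit, 69 and 85 with pseudocounts of 5 and 0.25, 98 with TMM-scaled libraries, and 78 to 100 with any library left out, fewest without replicate 2 of P at 36 h. Counts of members called that moved by over 1.5 times, with their cause not tested, were as follows. For P from 0 to 12 h, 17 were called with no filter and 17 with only the libraries compared; for P from 0 to 3 h, 4 with only the libraries compared and 14 with DESeq2. For P against Q, DESeq2 called 1 at 0 h, 6 at 12 h and 1 at 36 h; only the libraries compared gave 0 at 12 h and 5 at 36 h; and the filter of 10 counts in 11 libraries, which tests fewer genes, gave 1 at 36 h. For the 0 to 12 h change of P set against that of Q, no filter gave 2 and DESeq2 6. With each library left out in turn, the calls ranged from 3 to 10 for P from 0 to 3 h, 9 to 16 for P from 3 to 12 h, 0 to 1, 0 to 4 and 0 to 1 for P against Q at 0, 12 and 36 h, and 0 to 3 for the changes of P and Q set against each other. The calls counted in this paragraph are given without the shares of all genes called in the same fits.

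Scaling by library totals moved the median log2 change of all genes from -0.04 to -0.17 for P from 0 to 12 h and from 0.06 to 0.26 for P from 12 to 36 h, and that of the members with it, from 0.31 to 0.19 and from 2.29 to 2.50. In Q from 0 to 3 h the members' median changed sign, from 0.09 to -0.04, beside -0.02 and -0.13 over all genes, and 6 rose and 5 fell in place of 7 and 2. Libraries with the same replicate number did not deviate together: correlations of deviations from the group means ran from -0.182 to 0.235 over 70 pairs with a median of -0.006, and 9 of 22 libraries correlated best with their own number. With the replicate number as a block, P from 0 to 12 h gave 24 members, Q 25, P from 0 to 3 h 7, P against Q at 12 h 2 and at 36 h 1; of the members whose values are given above, it ended the call of rank 25 at 12 h (adjusted p 0.0562 in edgeR) and that of TRINITY_DN349_c0_g1 at 3 h in P (adjusted p 0.0528).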

Other observations

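The second most abundant member, at score rank 19, measured 30.4, 54.2 and 197 CPM in the 3 libraries of P at 0 h, with replicate 2 the highest, and replicate 2 of P at 0 h also had the highest summed level of that group. Another member, chosen after its values were seen, had no count in 2 libraries of P at 0 h and 59.6 CPM in the third, no count, 5.23 and 38.9 CPM in the libraries of P at 12 h, and 0.174, 32.7 and 36.9 CPM in Q at 0 h. It measured 18.1 and 49.2 CPM in P at 3 h, 13.5, 23.4 and 91.2 CPM in Q at 3 h, and 49.7, 88.1 and 108 CPM in Q at 12 h. At 36 h it measured 215 and 293 CPM in P and 177, 181 and 308 CPM in Q, with no library near 0. Libraries near 0 were thus found in P at 0 and 12 h and in Q at 0 h, and their source was not tested.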
